A study of Mus musculus with 20 samples.

Results

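Complement is a set of plasma proteins that mark microbes and damaged cells, and 9 of its genes were followed here in mouse blood: C3, Cfb, C1qa, C1qb, C1qc, C2, C4b, Cfp and C5ar1. They were chosen with earlier results of these data known, and taken by name, as every non-control probe whose gene name on the array is one of these symbols. That gave 10 probes of 39429, and 9 of the 31093 gene names on the array, with 2 probes for C3 and 1 for each of the others. Whole-blood RNA of 20 mice was hybridised in 1 colour to Agilent mouse expression arrays, 1 array per mouse. The mice formed 4 groups of 5 males aged 8 to 10 weeks. WT mice were C57BL/6, and mice labelled Il10-/- carried the targeted Il10 allele of the strain B6.129P2-Il10tm1Cgn/J in all their cells, with both genotypes bred as littermates from heterozygous parents. Within each genotype 1 group received a whole-body X-ray dose of 7 Gy and the other a sham exposure (0 Gy), and blood was drawn by cardiac puncture 24 h later. The comparisons ask how the blood transcripts of mice that can or cannot make interleukin-10, a cytokine that restrains inflammation, differ before and after irradiation.

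Complement can be started by C1q bound to antibody or to a cell surface (the classical pathway), by sugar-binding lectins, or by the slow turnover of C3 itself (the alternative pathway). All routes meet at an enzyme that splits C3, after which fragments coat the target, attract phagocytes through receptors and start assembly of a pore. Hepatocytes make most of the complement protein in plasma, while C1q and properdin come mainly from macrophages, monocytes and other myeloid cells.

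Signals are given as levels, in log2 units relative to the median of all non-control probes on the same array, so that 1 unit is a doubling. WT 0 Gy replicate 5 was the dimmest array, with 29.9% of its spots well above background, and Il10-/- 7 Gy replicate 3 was next with 34.6%, against 38.5% to 57.8% on the others. Repeated spots on WT 0 Gy replicate 5 had a median SD of 0.889, against 0.137 to 0.414 on the other arrays. Scaling by a reference array, an alternative used below, placed it 1.145 units higher than the median scaling did. The other 19 arrays were shifted by -0.23 to 0.28. Replicates 1 and 2 of every group were much alike: the robust SD of their differences over probes was 0.230 to 0.336, against 0.407 to 1.39 for the other 36 pairs within groups. The spread of repeated spots alone gave 0.216 to 0.274 for these pairs, and in 0 Gy mice labelled Il10-/- it was 0.233 beside 0.230. They were kept as separate mice, as labelled, and complement genes whose call or sign changes when these replicates are averaged are named. Differences that changed in size alone are not all given. The C3 difference between doses in mice labelled Il10-/-, for example, became smaller with the replicates averaged. Each of 5 slides held 1 array of each group, and all arrays with the same replicate number shared a slide, with the groups in 1 order of positions on slides 1, 2 and 5 and in the mirrored order on slides 3 and 4. Where groups do not overlap, a difference on 5 of 5 slides follows from that and adds nothing. The Il10 probe went against the genotype labels. Its mean level was -1.54 (SD 0.451, n = 5) in WT 0 Gy and -1.85 (SD 0.605, n = 5) in WT 7 Gy mice, not well above background on any of these arrays, but 2.75 (SD 0.305, n = 5) and 2.71 (SD 0.618, n = 5) in the 0 Gy and 7 Gy mice labelled Il10-/-. Where this probe lies relative to the changed stretch of the allele was not analysed here, and a probe outside that stretch checks nothing, so every direction between genotypes rests on the labels.

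Irradiated WT mice had more RNA for the complement genes than sham-exposed WT mice, and irradiated mice labelled Il10-/- had more than theirs for most of them. A probe was called when limma, fitted to the 18587 probes that passed the filters on dim and on steady probes, gave an unadjusted p below 0.001 and a Benjamini-Hochberg adjusted p below 0.1. All 10 complement probes passed the filters, and each gene was read from its brightest probe. In WT mice 8 of the 9 genes were called higher at 7 Gy, where 4.48% of all probes tested were (2.32% were called lower), and 9 had groups that did not overlap, where 11.8% of all probes did so in that direction. Their median difference was 4.21, beside -0.02 over all probes tested. Without WT 0 Gy replicate 5 878 of all probes were called lower in WT instead of 431, and 695 higher instead of 832, and the median of the 9 genes was 3.30, beside -0.19 over all probes. Without WT 7 Gy replicate 1 the lower calls were 286. In mice labelled Il10-/- 6 of the 9 were called higher at 7 Gy, beside 3.29% of all probes, 6 had groups that did not overlap, beside 6.13%, and the median difference was 1.85, beside -0.10 over all probes. Without irradiation, 3 of the 9 were called higher in mice labelled Il10-/- than in WT, beside 0.845% of all probes, and 5 did not overlap, beside 3.98%, with a median of 1.79 that stands against a shift of 0.36 over all probes. That shift was 0.15, and the median of the 9 was 1.45, without WT 0 Gy replicate 5. The 157 probes called higher there became 47, 104 and 100 without WT 0 Gy replicate 4, WT 0 Gy replicate 5 and Il10-/- 0 Gy replicate 4. After irradiation limma called 0 of the 9 between the genotypes, beside 0.00538% of all probes in either direction, and 0 of the 9 had an unadjusted p below 0.05. The difference between the genotypes' responses, which is the interaction term of limma's fit to all 20 arrays, was called for 0 of the 9 and for 0% of all probes, although 5 of the 9 had an unadjusted p below 0.05. The WT 0 Gy mice are the reference of both the WT dose comparison and the unirradiated genotype comparison, and each other group likewise enters more than 1 comparison, so these counts are not independent. Because the genes were chosen with earlier results of these data known, the counts beside the shares of all probes are a description and no test. In blood as a whole, more cells of a type and more RNA per cell cannot be told apart.

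**Figure D1:**
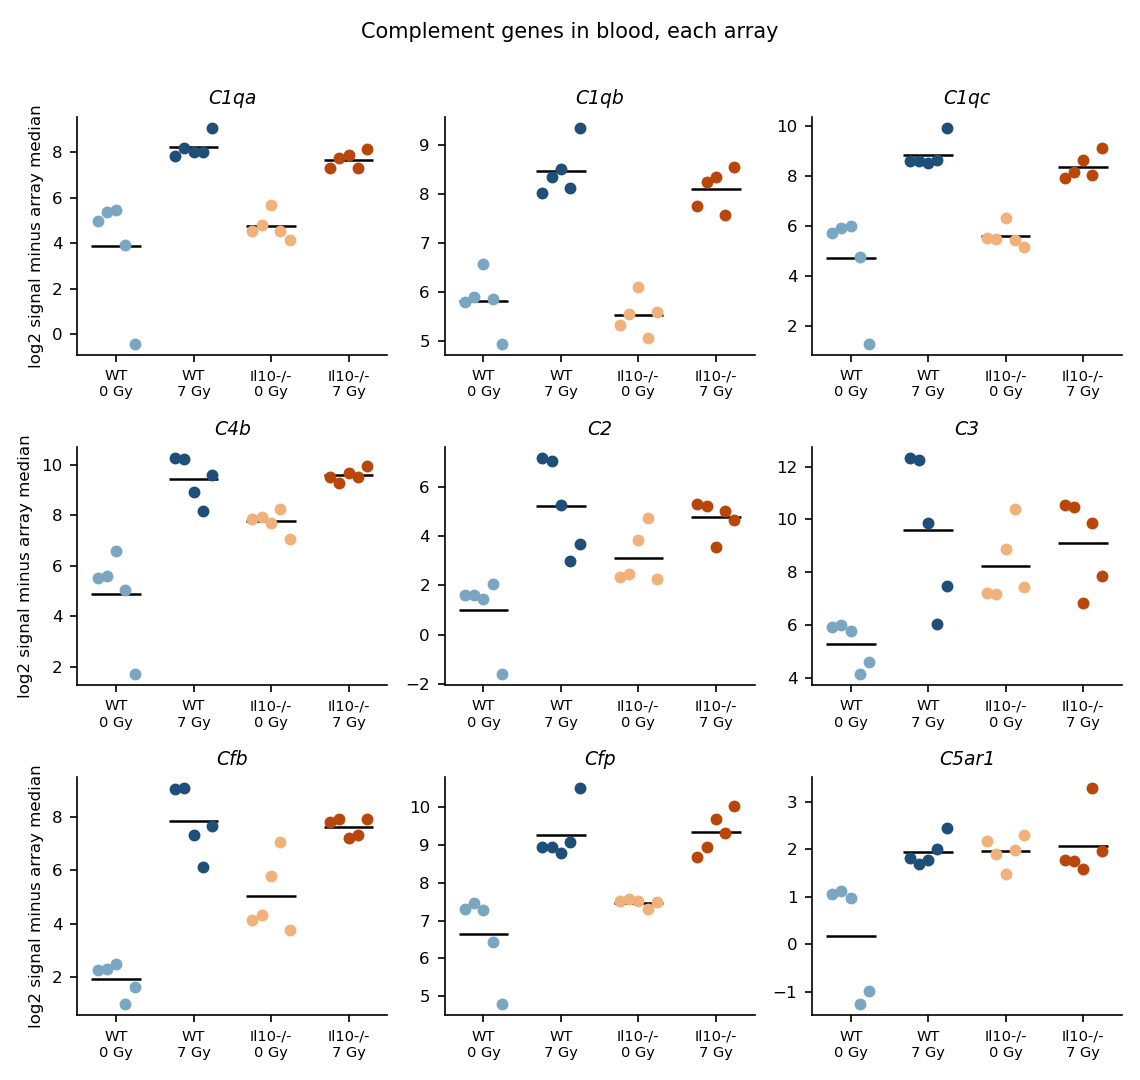
Levels of the 9 complement genes on each of the 20 arrays, in log2 units relative to the array median, by group, with a line at the mean of each group of 5. Cfb ran from 0.97 to 2.48 in WT 0 Gy mice and from 6.14 to 9.09 in WT 7 Gy mice.

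Because C1qb, C1qc and Cfp rose in both genotypes and C3 rose in WT mice, the 250 bases before their transcription starts are shown, from RefSeq's mouse assembly GRCm38.p6. Of the 9 genes, 5 were in the promoter table used, and the last of these, C5ar1, was searched too. Each window was searched on both strands for the interferon-stimulated response element (GAAA, any 2 bases, then GAAA, in 2.98% of 32851 promoters), TTCNNNGAA (gamma-activated site, 7.02%), GAGGAA (the core bound by PU.1, 23.3%), TTGCNNAA (C/EBP type, 9.56%) and an NF-kB motif (GGG, any 2 bases, then TTTCC, 1.41%). Capitals mark the matches: a TTGCNNAA motif 45 bases before the C3 start, and the letters GAGGAA, on either strand, 30 bases before the C1qb start and 193 bases before the C1qc start. The Cfp and C5ar1 windows held none of these letters. A match describes the letters and is neither a site nor a cause. The windows are on the minus strand at chr4:136886201-136886450 (C1qb), chr4:136892915-136893164 (C1qc), chrX:20931556-20931805 (Cfp) and chr17:57228137-57228386 (C3).
C1qb: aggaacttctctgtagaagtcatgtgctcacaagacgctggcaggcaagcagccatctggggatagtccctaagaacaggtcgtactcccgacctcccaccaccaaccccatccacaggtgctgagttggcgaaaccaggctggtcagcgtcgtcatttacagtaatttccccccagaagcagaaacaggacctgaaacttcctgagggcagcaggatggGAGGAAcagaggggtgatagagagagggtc
C1qc: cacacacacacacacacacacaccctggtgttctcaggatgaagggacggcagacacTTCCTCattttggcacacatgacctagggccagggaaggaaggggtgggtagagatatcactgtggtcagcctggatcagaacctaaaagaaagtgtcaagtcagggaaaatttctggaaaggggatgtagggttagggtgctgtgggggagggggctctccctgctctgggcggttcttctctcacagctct
Cfp: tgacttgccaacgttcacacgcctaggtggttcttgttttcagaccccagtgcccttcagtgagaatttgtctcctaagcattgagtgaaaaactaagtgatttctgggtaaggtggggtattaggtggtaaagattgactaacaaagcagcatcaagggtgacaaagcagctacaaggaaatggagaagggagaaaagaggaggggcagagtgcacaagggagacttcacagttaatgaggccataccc
C3: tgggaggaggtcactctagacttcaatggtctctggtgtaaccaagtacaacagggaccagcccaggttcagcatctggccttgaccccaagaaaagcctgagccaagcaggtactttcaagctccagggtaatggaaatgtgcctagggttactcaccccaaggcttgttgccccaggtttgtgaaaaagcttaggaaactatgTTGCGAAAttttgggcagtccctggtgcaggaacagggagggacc

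C1qa, C1qb and C1qc encode the chains of C1q, the molecule that recognises bound antibody and opens the classical pathway, and all of them rose after irradiation in both genotypes. They lie side by side: the probes map to chr4:136452409-136452468 (C1qa), chr4:136445766-136445825 (C1qc) and chr4:136436578-136436637 (C1qb) on the minus strand of build mm9, and no other protein-coding gene of the RefSeq annotation starts between neighbours among them. In WT mice C1qb stood at 5.80, 5.89, 6.57, 5.87 and 4.94 without irradiation (replicates 1 to 5) and at 8.02, 8.35, 8.52, 8.13 and 9.36 after 7 Gy. The corresponding levels in mice labelled Il10-/- were 5.33, 5.55, 6.11, 5.06 and 5.59 without irradiation and 7.76, 8.25, 8.35, 7.57 and 8.56 after 7 Gy. Every irradiated mouse was above every sham-exposed mouse, and the irradiated mice of the genotypes overlapped. The C1qb difference was 2.66 (SE 0.409, 95% interval 1.80 to 3.53) in WT, or 6.34-fold, with a limma adjusted p of 0.000878, and 2.57 (SE 0.272, 1.98 to 3.16) in mice labelled Il10-/-, or 5.94-fold, with an adjusted p of 8.85e-05. The irradiated array was higher on 5 of 5 slides in both genotypes, by 1.95 to 4.42 in WT and by 2.25 to 2.96 in mice labelled Il10-/-. The interaction was -0.09 (adjusted p = 0.969). With normexp, another background correction, limma called 0 of all probes between the doses in mice labelled Il10-/-, so none of the rises described here for these mice was called under it.

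C1qa and C1qc rose too, and 1 dim array weighed on their WT values. C1qa levels in WT 0 Gy mice were 4.97, 5.36, 5.46, 3.93 and -0.43, and C1qc levels there were 5.72, 5.95, 6.00, 4.77 and 1.30. Replicate 5, the dimmest array, was far below its group in both, and C1qa was not well above background on it. Its repeated spots also spread the most of all arrays, and reference-array scaling placed it 1.145 units higher. At 7 Gy WT mice ranged from 7.83 to 9.09 for C1qa and from 8.52 to 9.95 for C1qc, and mice labelled Il10-/- from 7.29 to 8.17 and from 7.94 to 9.12. The WT differences of 4.37 for C1qa (SE 0.858, adjusted p = 0.00373) and 4.12 for C1qc (SE 0.73, adjusted p = 0.00206), each higher on 5 of 5 slides, became 3.30 (adjusted p = 0.000586) and 3.26 (adjusted p = 0.000605) without that array. Among mice labelled Il10-/- C1qa rose by 2.94 (SE 0.309, adjusted p = 8.61e-05) and C1qc by 2.79 (SE 0.296, adjusted p = 9.18e-05), again on 5 of 5 slides. The interactions of -1.43 (adjusted p = 0.732) and -1.33 (adjusted p = 0.706) became -0.35 (adjusted p = 0.888) and -0.47 (adjusted p = 0.854) without the dim array.

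Cfp encodes properdin, which stabilises the C3-splitting enzyme of the alternative pathway, and it rose in both genotypes as the C1q genes did. Its probe maps to chrX:20502742-20502801 on the minus strand (mm9). WT mice stood at 7.30, 7.46, 7.27, 6.42 and 4.79 without irradiation and at 8.94, 8.94, 8.79, 9.07 and 10.50 after it. Mice labelled Il10-/- stood at 7.52, 7.58, 7.50, 7.29 and 7.48 without irradiation and at 8.68, 8.95, 9.67, 9.32 and 10.02 after it. The sham-exposed and irradiated mice did not overlap in either genotype, and the spread of the unirradiated mice labelled Il10-/- was small (SD 0.11). The difference was 2.60 in WT (SE 0.528, adjusted p = 0.00466) and 1.85 in mice labelled Il10-/- (SE 0.267, adjusted p = 0.000764), with the irradiated array higher on 5 of 5 slides in each. Without WT 0 Gy replicate 5 the WT difference was 2.13 (adjusted p = 0.00458). The interaction was -0.74 (adjusted p = 0.764), and -0.28 (adjusted p = 0.909) without that array.

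Most tested markers of tissue macrophages moved with the C1q genes and Cfp. The list has 12 genes on the array, of which Cd5l, a protein secreted by macrophages, was the brightest, and Cd163 was well above background on none of the 20 arrays. Of these genes, 3 to 9 were already well above background in WT 0 Gy blood and 8 to 11 in WT 7 Gy blood. The log2 of the list's summed signal was 7.91, 8.01, 8.05, 6.91 and 5.88 in WT 0 Gy mice and 10.74, 10.94, 10.65, 10.73 and 11.98 in WT 7 Gy mice. It was 7.90, 7.98, 8.11, 8.42 and 8.05 in 0 Gy mice labelled Il10-/- and 10.23, 10.27, 10.60, 10.40 and 10.80 in their 7 Gy counterparts. All irradiated mice were above all sham-exposed mice, including the irradiated mice in which hepatocyte markers were low. Of the 10 genes tested, 7 were called higher at 7 Gy in WT and 6 in mice labelled Il10-/-. They included the scavenger receptor Marco (differences of 5.53 and 3.90), Cd5l (4.45 and 2.60), the phosphatidylserine receptor Timd4 (2.99 and 1.71) and Adgre1, a surface protein used to identify macrophages (2.77 and 1.66). Not every gene of the list rose. Differences of the 10 ran from 0.04 to 5.53 in WT and from -0.50 to 3.90 in mice labelled Il10-/-. Between unirradiated groups limma called 0, and 1 had an unadjusted p below 0.05. The blood monocyte list, whose brightest gene was Csf1r, had 2 genes called higher and 1 lower of 6 tested in WT, and 0 higher and 3 lower in mice labelled Il10-/-. What part a change in macrophage or monocyte RNA had in the C1q and Cfp values was not tested.

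C4b and C2 encode the parts of the C3-splitting enzyme of the classical and lectin pathways, and both lie with Cfb in the major histocompatibility complex on chromosome 17. The C4b probe maps to chr17:34865328-34865387 and the C2 probe to chr17:34999575-34999634, both on the minus strand (mm9). No other protein-coding gene starts between C2 and Cfb in the RefSeq annotation, and 5 do between Cfb and C4b (Cyp21a1, Stk19, Dxo, Skiv2l and Nelfe). The near-identical gene C4a is not named on the array, and whether its RNA binds the C4b probe was not tested. C4b levels in WT mice were 5.52, 5.58, 6.59, 5.04 and 1.72 without irradiation and 10.27, 10.24, 8.92, 8.16 and 9.61 after it. Those of mice labelled Il10-/- were 7.87, 7.94, 7.69, 8.24 and 7.06 without irradiation and 9.52, 9.30, 9.67, 9.50 and 9.96 after it. Unirradiated mice labelled Il10-/- lay between unirradiated and irradiated WT mice, overlapping only the latter, and the irradiated groups overlapped each other. C4b rose at 7 Gy by 4.55 in WT (SE 0.727, adjusted p = 0.00108). The rise in mice labelled Il10-/- was 1.83 (SE 0.255, adjusted p = 0.000602), and in each genotype it was seen on 5 of 5 slides. Without WT 0 Gy replicate 5 the WT rise was 3.76 (adjusted p = 0.000831). With all 4 groups in 1 fit the difference in mice labelled Il10-/- was no longer called (adjusted p = 0.0492, with an unadjusted p above 0.001).

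C2 was well above background on 4 of 5 arrays of unirradiated WT blood, with levels of 1.61, 1.62, 1.44, 2.05 and -1.59, and reached 7.18, 7.05, 5.28, 2.98 and 3.68 after irradiation. Mice labelled Il10-/- stood at 2.33, 2.47, 3.84, 4.72 and 2.27 without irradiation and at 5.31, 5.23, 3.58, 5.03 and 4.67 after it. The WT groups did not overlap, whereas those of the mice labelled Il10-/- did. C2 rose by 4.21 in WT (SE 0.826, adjusted p = 0.00373, 5 of 5 slides), a call that was lost with normexp background correction and in the deposited table. The rise was 3.56 (adjusted p = 0.0112) without WT 0 Gy replicate 5. The difference in mice labelled Il10-/- was 1.64 (SE 0.504, adjusted p = 0.0364, 4 of 5 slides), which did not reach the p threshold, but was called at 2.04 without Il10-/- 0 Gy replicate 4 (adjusted p = 0.00831). It was also called at the 5% rate alone.

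C3 is the protein on which all routes converge. Its brighter probe maps to chr17:57343416-57343475 and the other to chr17:57343678-57343737, both on the minus strand (mm9). WT mice stood at 5.92, 6.00, 5.77, 4.13 and 4.60 without irradiation and at 12.34, 12.26, 9.86, 6.05 and 7.49 after it. Mice labelled Il10-/- stood at 7.21, 7.17, 8.88, 10.39 and 7.42 without irradiation and at 10.55, 10.46, 6.82, 9.86 and 7.85 after it. Irradiated WT mice differed widely among themselves, with replicates 1 and 2 very high and replicate 4 barely above the highest sham-exposed mouse, and the groups of mice labelled Il10-/- overlapped. The WT difference was 4.32 (SE 0.98, 95% interval 2.24 to 6.39), or 19.9-fold, with a limma adjusted p of 0.00895 and 5 of 5 slides higher, by 1.92 to 6.42. It ran from 3.63 to 5.20 when 1 array was left out. The other C3 probe gave 3.83 and was called too, though its groups overlapped. The C3 difference in mice labelled Il10-/- was 0.89 (SE 0.808, -0.86 to 2.65, adjusted p = 0.46), with the irradiated array higher on 3 of 5 slides and the slides spread from -2.06 to 3.34. With 1 array left out this difference ran from 0.53 to 1.47. The WT call was lost under scaling by the 75th percentile, by a reference array or by quantiles, where the difference was 4.09, 4.21 and 4.06. It was also lost with normexp and in the deposited table. Leaving out WT 0 Gy replicate 4, WT 0 Gy replicate 5 or WT 7 Gy replicate 3 ended it too, with differences of 4.03, 4.14 and 4.25 (adjusted p = 0.0347, 0.0313 and 0.0196).

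Cfb encodes factor B, which supplies the enzyme of the alternative pathway's C3-splitting complex, and it had the largest WT difference of the 9 genes. The array files do not map its probe, which was well above background on 4 of 5 WT 0 Gy arrays. WT mice stood at 2.26, 2.30, 2.48, 0.97 and 1.61 without irradiation and at 9.07, 9.09, 7.32, 6.14 and 7.67 after it. Mice labelled Il10-/- stood at 4.13, 4.31, 5.80, 7.08 and 3.78 without irradiation and at 7.80, 7.91, 7.22, 7.34 and 7.93 after it. All 10 irradiated mice were high, those labelled Il10-/- within a narrow range, and among unirradiated mice labelled Il10-/- replicate 4 came close to them. The WT difference was 5.93 (SE 0.548, 95% interval 4.77 to 7.09), or 61.0-fold, with an adjusted p of 1.81e-05 and slides from 4.84 to 6.81, higher on 5 of 5. With normexp it was 4.92 (adjusted p = 0.00196). Without WT 0 Gy replicate 5, where Cfb was not well above background, it was 5.85 (adjusted p = 0.000356). Cfb rose in mice labelled Il10-/- as well, by 2.62 (SE 0.544, adjusted p = 0.00613), again on 5 of 5 slides. That call was lost with normexp, with the slide as a block (adjusted p = 0.0252), with replicates 1 and 2 averaged (2.36, adjusted p = 0.0409), and when replicate 1, 2 or 5 of either dose was left out, with differences of 2.31 to 2.58 and adjusted p from 0.0148 to 0.0187.

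Hepatocyte markers varied strongly between mice of the same group, and in both irradiated groups C3 was lowest where they were lowest. The list has 20 genes on the array, chosen as genes expressed mainly in the liver, and its brightest gene was Apoa2. Of these genes, 6 to 14 were well above background in WT 0 Gy blood. The log2 of their summed signal was 7.44, 7.55, 7.34, 8.09 and 6.56 in WT 0 Gy mice and 16.36, 16.31, 13.68, 8.12 and 10.66 in WT 7 Gy mice. It was 7.68, 7.75, 13.52, 14.69 and 7.80 in 0 Gy mice labelled Il10-/- and 14.66, 14.66, 7.35, 13.40 and 9.89 in their 7 Gy counterparts. The mice with the lowest C3 level in each irradiated group, WT replicate 4 and Il10-/- replicate 3, were also those with the lowest hepatocyte signal, and the highest C3 levels without irradiation, in Il10-/- replicates 3 and 4, stood with high hepatocyte signal. Among WT 0 Gy mice this did not hold for the summed signal: replicate 4 had the highest (8.09) and the lowest C3 level (4.13). By the mean level of the list, replicates 1 and 2 were highest there (1.46 each), with C3 at 5.92 and 6.00. Replicate 4 had a mean level of 0.84. Cfb was 6.14 and 7.22 and C1qb 8.13 and 8.35 in those irradiated mice with low hepatocyte signal. In the WT mouse C3, Cfb and C1qb were above all 5 WT 0 Gy mice, C3 by little (6.05 against 6.00). In the mouse labelled Il10-/- C1qb was above all 5 of its 0 Gy group and Cfb by little (7.22 against 7.08), whereas C3 (6.82) was below all 5. Of 17 hepatocyte genes tested, 12 were called higher at 7 Gy in WT and 0 in mice labelled Il10-/-, where 0 had an unadjusted limma p below 0.05, and without irradiation 13 of the 17 had an unadjusted p below 0.05 between the genotypes, with a median difference of 4.24, and 2 were called higher in mice labelled Il10-/- than in WT (Alb 5.75 and Hpx 5.70, well above background on 2 and 1 of 5 WT 0 Gy arrays). What part liver RNA in the blood sample had in the C3, Cfb, C2 and C4b values was not tested.

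**Figure D2:**
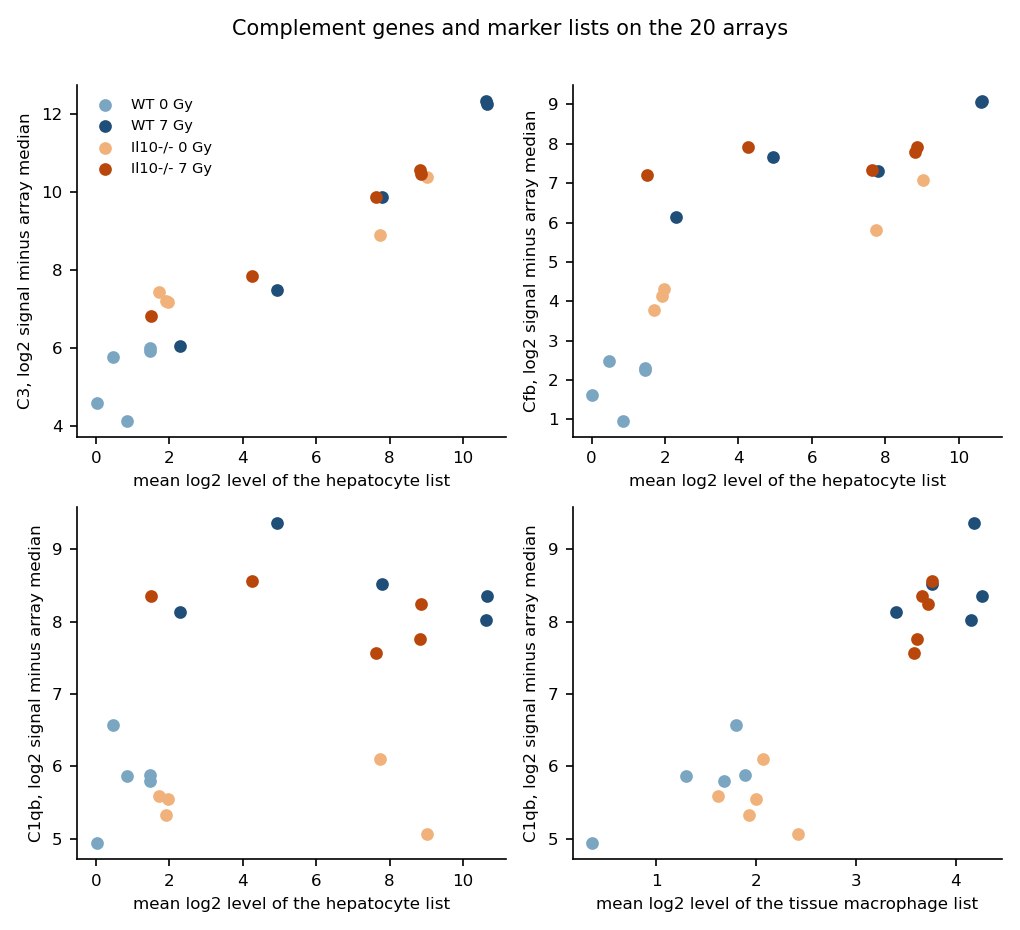
Level of C3, Cfb or C1qb on each of the 20 arrays (log2 relative to the array median) against the mean level of the hepatocyte list, and of C1qb against the tissue macrophage list. In the irradiated mouse of each genotype with the lowest hepatocyte signal C3 was 6.05 and 6.82 and Cfb 6.14 and 7.22.

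Other marker lists differed in direction. Heart muscle genes, which cardiac puncture can carry over, had Myl3 as the brightest gene, with 0 of 7 tested called by limma in WT (4 with an unadjusted p below 0.05) and 5 called higher at 7 Gy in mice labelled Il10-/-. B cell genes, with Cd79b the brightest, fell at 7 Gy for 6 of 7 tested in both genotypes. T cell genes (brightest Lck) fell for 1 of 7 in WT and 2 of 7 in mice labelled Il10-/-, and erythroid genes (brightest Alas2) for 4 of 6 in both. Mature neutrophil genes (brightest S100a9) were called at 7 Gy for 0 of 7 in either genotype (0 and 2 with an unadjusted p below 0.05), and 4 of 7 were higher in unirradiated mice labelled Il10-/- than in WT. Of 5 platelet genes (brightest Pf4) limma called 0 in every comparison, with 4 at an unadjusted p below 0.05 for the dose in each genotype. The monocyte list had 1 gene called between unirradiated groups. Between the irradiated groups and in the interaction, limma called 0 genes of every list, and an unadjusted p below 0.05 was most frequent for mature neutrophil genes between irradiated groups (6 of 7) and for hepatocyte genes in the interaction (7 of 17).

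C5ar1 encodes the receptor through which the fragment C5a attracts neutrophils and monocytes, and its probe was well above background on 3 of 5 WT 0 Gy arrays. It maps to chr7:16832243-16832302 on the minus strand (mm9). WT mice stood at 1.05, 1.12, 0.97, -1.26 and -0.98 without irradiation and at 1.80, 1.69, 1.78, 2.01 and 2.44 after it. Mice labelled Il10-/- stood at 2.17, 1.90, 1.48, 1.99 and 2.30 without irradiation and at 1.78, 1.75, 1.58, 3.28 and 1.97 after it. WT 0 Gy mice were below all other mice, and the other groups overlapped. The WT difference of 1.76 (SE 0.506, adjusted p = 0.0284, 5 of 5 slides) did not reach the p threshold, nor did that of 0.10 in mice labelled Il10-/- (SE 0.327, adjusted p = 0.843, 2 of 5 slides). With all 4 groups in 1 fit the WT difference was called (adjusted p = 0.00588), as it was at the 5% rate alone.

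**Figure D3:**
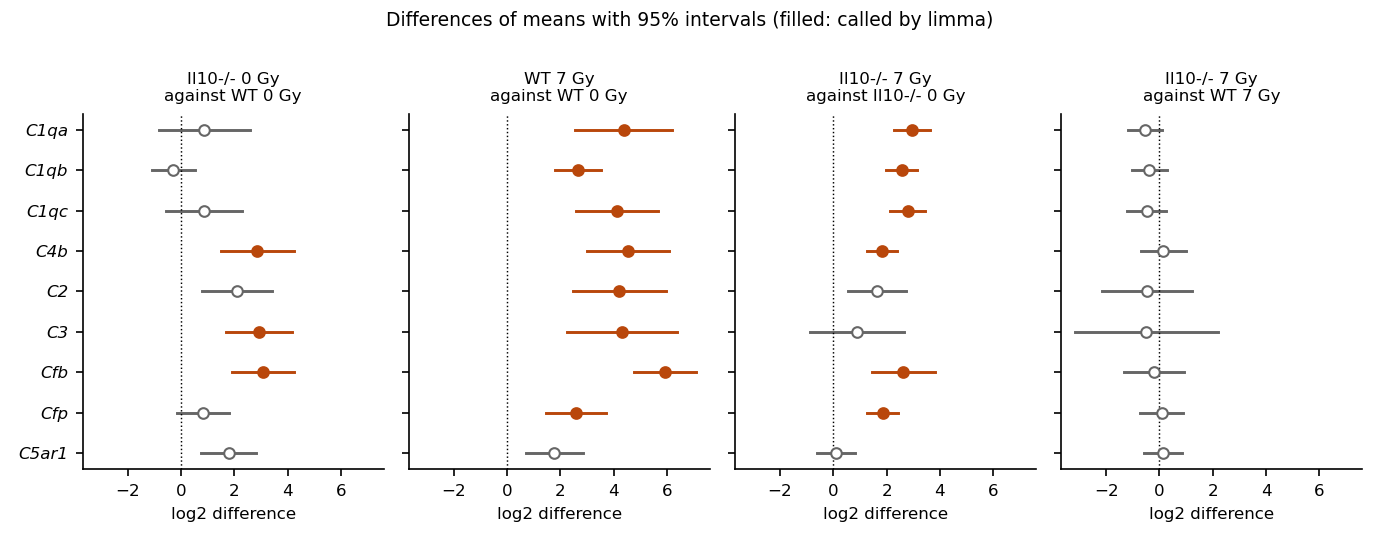
Log2 difference of each of the 9 genes with its 95% interval in the comparisons of unirradiated genotypes, WT dose, Il10-/- dose and irradiated genotypes, filled where called. Called genes number 3, 8, 6 and 0.

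Without irradiation, mice labelled Il10-/- had higher levels of C3, Cfb and C4b than WT mice. The differences were 2.93 for C3 (SE 0.585, adjusted p = 0.0303), 3.09 for Cfb (SE 0.556, adjusted p = 0.0186) and 2.87 for C4b (SE 0.65, adjusted p = 0.0593), each with no overlap and therefore on 5 of 5 slides. Relative to the shift of 0.36 over all probes they were 2.57, 2.74 and 2.51. The hepatocyte list had a median difference of 4.24 in the same comparison, and its part in these values was not tested. The other C3 probe gave 2.49 and was called too. C2 differed by 2.10 (SE 0.633, adjusted p = 0.177) and C5ar1 by 1.79 (SE 0.491, adjusted p = 0.139), without overlap and therefore on 5 of 5 slides, but neither was called. With the slide as a block both were (adjusted p = 0.00568 and 0.0317), and with all 4 groups in 1 fit C5ar1 was (adjusted p = 0.071). C1qb differed by -0.28, and the differences of C1qa (0.88), C1qc (0.85) and Cfp (0.82) were not called either. Without WT 0 Gy replicate 5 C1qa and C1qc turned to -0.19 and -0.01, Cfp was 0.36, C2 was 1.45, and C4b was 2.08 and still called (adjusted p = 0.0487). The calls depended on the scaling: limma called 0 of the 9 genes under scaling by the 75th percentile, by a reference array or by quantiles, with normexp and in the deposited table, where C3, Cfb and C4b differed by 1.86 to 2.82 with adjusted p from 0.104 to 0.708. Without WT 0 Gy replicate 4 none of them was called either (2.65, 2.86 and 2.91, adjusted p = 0.179, 0.104 and 0.23), and with all 4 groups in 1 fit C3 was not (adjusted p = 0.141). C4b was not called with no filters (adjusted p = 0.18) or at the 5% rate alone. Leaving out other arrays ended the calls of C3 (2.76, adjusted p = 0.112, without WT 0 Gy replicate 5) and C4b (2.89, adjusted p = 0.103, without Il10-/- 0 Gy replicate 3, and 2.75, adjusted p = 0.102, without replicate 4).

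After irradiation no gene was called between the genotypes, and the intervals were wide. The difference of mice labelled Il10-/- from WT was -0.49 for C3 (95% interval -3.18 to 2.20), -0.22 for Cfb (-1.34 to 0.90) and 0.15 for C4b (-0.70 to 1.00), and the C1q genes lay at -0.54 (C1qa), -0.38 (C1qb) and -0.48 (C1qc). The array labelled Il10-/- was higher on 0 of 5 slides for C1qa and C1qb and on 1 of 5 for C1qc. None of the C1q genes was called with the slide as a block. All 9 adjusted p-values were above the threshold, which does not show that the levels were equal. The interaction was negative for all 9 genes. Relative to the median of -0.20 over all probes it was negative for 8, with C1qb at 0.10, and the C1qb value turned to 0.16 under 75th percentile and reference-array scaling, 0.30 with quantiles, 0.14 in the deposited table and 0.12 without WT 0 Gy replicate 5. The median over all probes moved as well, to 0.02 without that array. It was 0.12 with 75th percentile scaling, 0.11 with a reference array, 0.13 in the deposited table, -0.10 with quantiles and -1.01 with normexp. The sizes were -3.42 for C3 (SE 1.41), -3.31 for Cfb (SE 0.809, 95% interval -4.99 to -1.64), -2.72 for C4b (SE 0.854), -2.57 for C2 and -1.66 for C5ar1, each negative on 5 of 5 slides and each with a limma adjusted p of 0.688. The unadjusted limma p was 0.000455 for Cfb, 0.00415 for C4b, 0.0138 for C5ar1, 0.0235 for C3 and 0.0254 for C2. Cfb alone thus passed the unadjusted threshold, but not the adjusted one. The interactions of C4b and C2 were -1.93 and -1.92 without WT 0 Gy replicate 5, and that of C3 ran from -4.31 to -2.74 when 1 array was left out. A difference between the genotypes in how these genes answered the dose was therefore not called, although C3, for example, passed the test in WT alone.

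Of other complement genes in the lists used, 46 were on the array and 29 had a probe in the tests. These lists too were chosen with earlier results of these data known, so their counts are a description. In WT mice 12 of these 29 were called higher at 7 Gy, beside the 4.48% of all probes, and 2 lower, beside 2.32%, with a median difference of 1.77. In mice labelled Il10-/- 3 were called higher, beside 3.29%, and 2 lower, beside 5.87%, with a median of 1.04; the 1091 probes behind the last share became 669 and 665 without Il10-/- 0 Gy replicate 1 and 2. Without irradiation 2 were higher in mice labelled Il10-/- than in WT, beside 0.845%, and the median was 0.87, beside 0.36 over all probes, and limma called 0 between irradiated groups and 0 in the interaction, with 4 and 6 at an unadjusted p below 0.05. The mean level of the 12 initiators of the classical and lectin pathways on the array was -1.22 to -0.10 in WT 0 Gy mice. It was 4.90, 5.04, 2.71, 0.64 and 1.46 in WT 7 Gy replicates 1 to 5, and hepatocyte signal was also lowest in replicate 4. What part liver RNA had was not tested. Among the 10 initiators tested, 5 rose in WT. These were C1ra (5.04, adjusted p = 0.000617), C1s1 (4.81, adjusted p = 0.00174) and C1s2 (4.82, adjusted p = 0.00251), which encode the proteases of the C1 complex and were well above background on 2, 1 and 2 of 5 WT 0 Gy arrays, and the lectins Fcna (3.57, adjusted p = 0.00366) and Mbl2 (adjusted p = 0.003). Mbl2 was well above background on 0 of 5 WT 0 Gy arrays and 4 of 5 WT 7 Gy arrays, which makes it at least 83.1-fold higher, a bound set by the lowest signal that counted as well above background on each array. Only Fcna of these 10 was called in mice labelled Il10-/- (2.45, adjusted p = 0.000132), and C1ra (2.57) and C1s1 (2.68) were the pair called between unirradiated groups (adjusted p = 0.0593 and 0.044). Cfd, which encodes the protease that activates factor B, rose in both genotypes, by 3.01 (adjusted p = 0.0111) and 3.37 (adjusted p = 0.000548), with only 2 of 5 WT 0 Gy arrays well above background.

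Of 3 tested pore genes 2 rose in WT mice, as did 2 of 3 tested regulators in plasma. The mean level of the 7 pore genes on the array was -0.95 to 0.05 in WT 0 Gy mice. It was 5.55, 5.52, 2.88, -0.35 and 0.96 in WT 7 Gy replicates 1 to 5, lowest where hepatocyte signal was lowest. In mice labelled Il10-/- it was -0.72, -0.88, 3.25, 3.86 and -0.64 at 0 Gy, highest in replicates 3 and 4 with high hepatocyte signal. At 7 Gy it was 3.92, 3.77, 0.51, 2.74 and 0.24, where hepatocyte signal was lowest in replicate 3. What part liver RNA had was not tested. Hc, which encodes C5, rose in WT by 5.22 (adjusted p = 0.0122) and C8g by 5.50 (adjusted p = 0.0109). In mice labelled Il10-/- limma called 0 of the 3 pore genes, with 0 at an unadjusted p below 0.05. Hc was well above background on 2 of 5 WT 0 Gy arrays and C8g on 3. Another C8g probe gave 1.58 and was not called. Clu, which keeps the pore from inserting into membranes, rose by 1.51 in WT (adjusted p = 0.0126). Vtn was well above background on 0 of 5 WT 0 Gy arrays and 4 of 5 WT 7 Gy arrays, and was at least 72.3-fold higher (adjusted p = 0.00315). Serping1, the inhibitor of the C1 proteases, gave 1.28 and no call at its brightest probe but 5.66 (adjusted p = 0.00123) at another, which was well above background on 2 of 5 WT 0 Gy arrays, and a dimmer Cfhr2 probe gave 3.41 (adjusted p = 0.00362). None of the 3 plasma regulators was called in mice labelled Il10-/-, where 1 had an unadjusted p below 0.05.

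Surface regulators and receptors moved in both directions. Cd55, which speeds the decay of the C3-splitting enzymes on the body's own cells, was the 1 of 3 membrane regulators tested that was called. It fell by 2.91 in WT (adjusted p = 0.000746), and the genotype labelled Il10-/- gave a decrease too: there it fell by 3.29 (adjusted p = 2.38e-05). Of 9 receptors tested, Cr2, the B cell receptor for C3 fragments, fell by 2.55 (adjusted p = 0.00147) and 2.00 (adjusted p = 0.000375), alongside the B cell list. Vsig4, a receptor for C3b on tissue macrophages, rose by 4.36 (adjusted p = 0.000317) and 2.81 (adjusted p = 0.000511), and C3ar1, the receptor for C3a, rose by 2.62 in WT (adjusted p = 0.00467, well above background on 2 of 5 WT 0 Gy arrays) with 0.59 and no call in mice labelled Il10-/-. Among genes well above background on at least 1 array of every group compared, the highest and lowest differences without irradiation were those of Hc (2.73, adjusted p = 0.266) and Cr2 (-0.48), and between irradiated groups those of Cfd (1.59, adjusted p = 0.395) and C8g (-1.52, adjusted p = 0.795). In the interaction they were those of Cr2 (0.55, adjusted p = 0.781) and C8g (-4.02, adjusted p = 0.695). Mbl2, well above background on 2 of 5 arrays at 0 Gy and 4 of 5 at 7 Gy, had the largest dose difference in mice labelled Il10-/- (3.56, adjusted p = 0.183). None of these differences was called. Vtn and Mbl2, with 0 of 5 WT 0 Gy arrays well above background, were left out of the ranks that involve this group, a choice made after their values were seen.

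**Figure D4:**
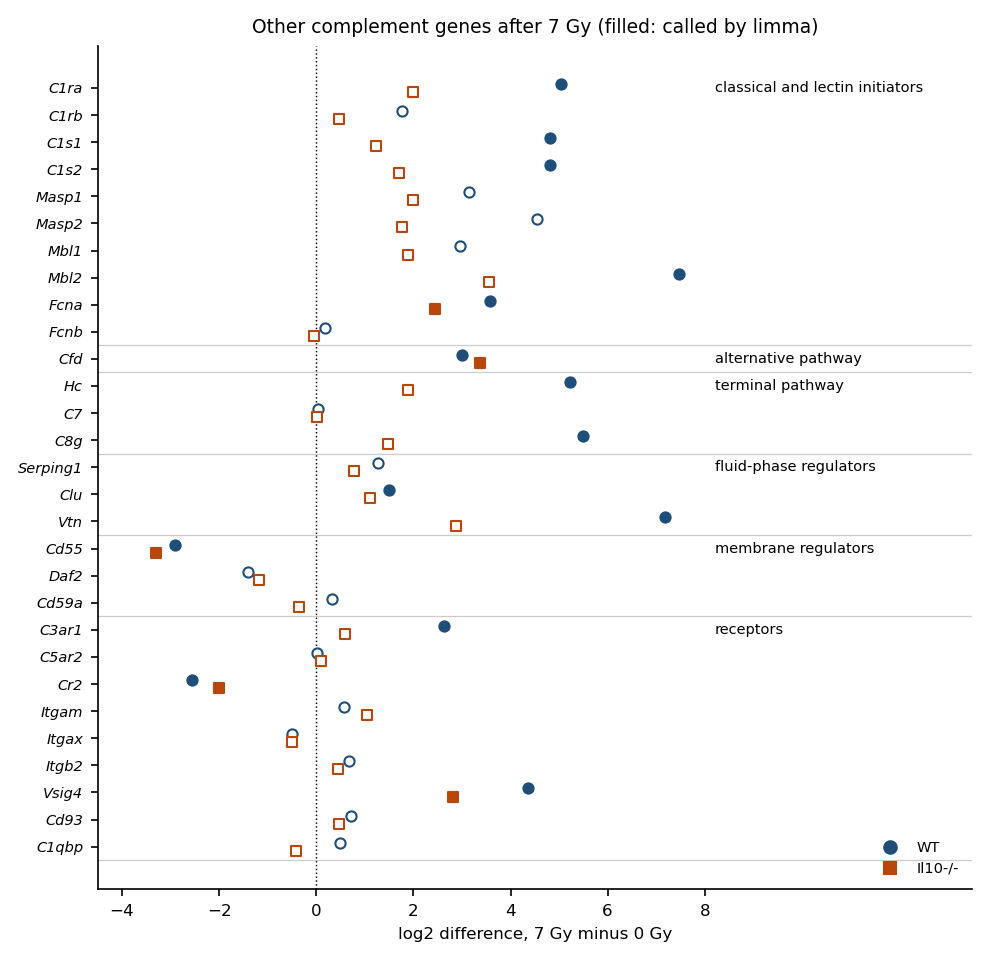
Log2 difference between 7 Gy and 0 Gy for the 29 other complement genes tested, in WT (circles) and mice labelled Il10-/- (squares), filled where called. In WT 12 were called higher and 2 lower, and in mice labelled Il10-/- 3 higher and 2 lower. The WT points of Mbl2 and Vtn are fitted differences from a group not well above background, for which only the bounds in the text hold.

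The genes whose levels ran most like each complement gene over the 20 arrays differed by member, and are given with Pearson's r as a description, since groups and array quality are shared by all points. For C1qa they were Fcna (r = 0.996), Pmp22 (0.989) and Cd5l (0.986), and for C1qc Fcna (0.997), Pmp22 (0.995) and Plxdc2 (0.994). For Cfp they were Adgre1 (0.985), Rab11fip5 (0.983) and Timp2 (0.983), and for C1qb Engase (0.973), Sdc3 (0.950) and Nxpe5 (0.946). Macrophage-list genes thus stood beside C1qa and Cfp. For C3 they were Tst (0.981), Rnase4 (0.979) and Mgst1 (0.975), all with r above 0.95 when group means were removed (0.966, 0.964 and 0.956). For Cfb they were Gm4951 (0.986), Tspan4 (0.984) and Kank2 (0.980), for C2 they included Hint2 (0.966) and Hsd3b7 (0.965), and for C4b Slc2a8 (0.972), Plcd1 (0.964) and Cptp (0.963). C5ar1 ran most like Wfdc18 (0.977), Tnfrsf1a (0.971), a receptor for tumour necrosis factor, and Pilra (0.967). Of all these values the lowest after removing group means was 0.788, for C1qb and Sdc3.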

How the data were processed

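Total RNA of whole blood was depleted of globin transcripts and hybridised by the authors, 1 mouse per array. The deposited scanner output holds intensity values (gProcessedSignal) that Agilent Feature Extraction had corrected for background and marked for non-uniform spots. The array headers name version 12.0.2.2 and probe build mm9, while the authors' methods name version 10.7. The authors also deposited a table of log2 values with 16909 probes, of which 16866 matched the scanner output, with a constant per array close to the median distance from Il10-/- 0 Gy replicate 3 (largest deviation 0.0512).

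Here, non-uniform spots were left out, spots of a probe were averaged on the log2 scale, and the median of the non-control probes was subtracted from each array. Probes marked on 25% or more of the arrays, or changed 1.5-fold on under 20% of them, were dropped, which left 18587. limma's lmFit and eBayes were run on the 10 arrays of each pair of groups, and on all 20 for the interaction, with Benjamini-Hochberg adjustment over all probes fitted. The named genes were all members, other complement genes called or with the largest difference in either direction in any comparison, and the 3 genes most correlated with each member. The limit of those largest differences to genes well above background on an array of every group compared was set after the values were seen. A gene of the lists and a correlated gene are not reported here, and the counts leave the former out. A bound on a fold used the mean of the dim group with each array raised to its lowest signal well above background. The members and gene lists were chosen with earlier results of these data known. The fit was tested on simulated data. R 4.3.3, limma 3.58.1, data.table (version 1.17.8), Python 3.11.15 and matplotlib 3.10.9 were used.

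Alternatives were scaling by the 75th percentile, a reference array or quantiles, normexp with an offset of 50, the deposited table, other filters, the mean of a gene's probes, the replicate number (slide) as a block, all groups in 1 fit, a 5% rate alone, and leaving out each array. After the data were seen, 2 were added: replicates 1 and 2 averaged, and the 2 dimmest arrays left out. The number of arrays limits the precision.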

Additional observations from a re-analysis of the deposited data

Results flagged for a closer look

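In 7 of 36 groups of 5 levels (9 genes in 4 groups), the highest or lowest mouse stood apart from the rest by more than 0.71 of the group's range. Chance gives this in about 1 in 20 independent groups, but these 36 share arrays and hold correlated genes, so the rates cannot be compared. WT 0 Gy replicate 5, the dimmest array, was lowest for C1qa (-0.43, nearest 3.93), C1qc (1.30, nearest 4.77) and C2 (-1.59, nearest 1.44). WT 7 Gy replicate 5 was highest for C1qc (9.95, nearest 8.66) and Cfp (10.50, nearest 9.07). C1qc was highest in Il10-/- 0 Gy replicate 3 (6.33, nearest 5.52), and C5ar1 in Il10-/- 7 Gy replicate 4 (3.28, nearest 1.97).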

How the results depend on the processing

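Of the members' differences under other settings, without the 5% rate, 519 kept their direction and side of the threshold, 35 lost a call, 4 gained one and 13 changed sign. With 1 array left out, 505 kept both, 15 lost a call, 1 gained one and 19 changed sign. The 5% rate alone ended the call of C4b without irradiation. It added those of C5ar1 for the dose in WT and of C2 for the dose in mice labelled Il10-/-. Members called without irradiation fell from 3 to 0 under 75th percentile, reference-array and quantile scaling, normexp and the deposited table, and the count was 5 with the replicate block; leaving out 1 array gave 0 to 3. In WT the count at 7 Gy was 6 to 9, and 7 to 8 with 1 array left out. In mice labelled Il10-/- it was 0 with normexp and otherwise 5 to 7. The replicate numbers are slides, but arrays of a slide did not deviate together in every pair (mean correlation of deviations -0.128 to 0.414 by pair of groups). The block removed the call of Cfb and added those of C2 and C5ar1 as given, and changed no other member call. Signs turned only for values not called. Between irradiated groups Cfp was -0.016 (75th percentile), -0.83 (normexp) and -0.0074 (2 dimmest arrays out), C4b -0.71 (normexp), Cfb 0.034 (replicates 1 and 2 averaged) and C3 0.083 (2 dimmest out). The C1qb interaction was 0.16 (75th percentile and reference array), 0.30 (quantile), 0.14 (table) and 0.059 (2 dimmest out), and without irradiation C1qa was -0.19 and C1qc -0.0088 (2 dimmest out). With 1 array left out, ranges that crossed 0 were C1qa -0.19 to 1.28 and C1qc -0.0088 to 1.17 without irradiation, the C1qb interaction -0.28 to 0.13, C5ar1 -0.20 to 0.23 for the dose in mice labelled Il10-/-, and, between irradiated groups, C3 -1.38 to 0.19, Cfb -0.65 to 0.091, C2 -1.03 to 0.017, C4b -0.17 to 0.36, Cfp -0.093 to 0.39 and C5ar1 -0.18 to 0.25. The cause was not tested. The median over all probes without irradiation was 0.36, -0.07 (75th percentile), -0.02 (reference array), 0.11 (quantile) and 0.53 (normexp). Probes called there numbered 157, but 43 (75th percentile), 77 (reference array), 25 (quantile), 0 (normexp), 57 (table), 66 (no filters), 384 (block) and 76 (5% rate), with 47 to 181 when 1 array was left out. WT dose calls numbered 1263, but 261 (normexp), 754 (replicates averaged), 2119 (1 fit) and 2712 (5% rate), and 65.9% of them were higher, against 51.1% (75th percentile), 50.4% (quantile), 98.5% (normexp) and 44.2% (2 dimmest out). Dose calls in mice labelled Il10-/- numbered 1702, but 0 (normexp), 815 (averaged) and 4053 (5% rate), with 35.9% higher, against 50.4% (reference array) and 52.0% (table). When 1 array was left out they numbered 1133 to 1535, and the WT dose calls 863 to 1573. Other complement genes and marker lists were given in the main scaling alone. C5ar1 could not be fitted with normexp.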
